A study of Homo sapiens with 4 samples.

Results

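A set of 9 genes best known from myeloid cells was followed in SUP-M2 cells, an established human line from an anaplastic large cell lymphoma: TREM1, TYROBP, FCER1G, ALOX5AP, ALOX5, CSF1R, SPI1, CEBPA and CEBPD. These are 9 of the 58735 genes in the deposited table, matched by gene symbol. The set was chosen by read counts in these same libraries: TREM1 and ALOX5AP had no reads in the control libraries and were read in both knockdown libraries, while CSF1R was expressed in every library. Those values chose the members, so the members' levels are given as a description with no test. RNA-seq was done on 4 libraries of SUP-M2, 2 with a scrambled short hairpin RNA (shscramble) and 2 with short hairpin RNA against GOLM1 (shGOLM1), a gene for a Golgi membrane protein. All 4 come from the same lymphoma line with no other treatment in the labels. By title these are hairpin samples, and a hairpin reduces a transcript, whereas their genotype is labelled as a knockout of GOLM1. The labels say neither which hairpin sequence each shGOLM1 library carried nor whether replicates were separate cultures, so a p-value here measures how far these libraries differ, and that difference may be technical.

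As background, TREM1 is a receptor that amplifies inflammatory signals on neutrophils and monocytes. It has no signalling motif of its own and pairs with the adaptor TYROBP (DAP12), whose ITAM, a tyrosine-based activation motif, recruits the kinase SYK. FCER1G, the common gamma chain of Fc receptors, is a second adaptor of that kind. ALOX5 is the lipoxygenase that starts leukotriene synthesis from arachidonic acid, and ALOX5AP (FLAP) is the membrane protein that presents the substrate to it. CSF1R is the receptor tyrosine kinase for the macrophage growth factors CSF1 and IL34. SPI1 (PU.1) and CEBPA are the transcription factors that set up the myeloid lineage, and CEBPD is a related factor that many cell types induce under stress. T cell lymphomas such as anaplastic large cell lymphoma arise outside the myeloid lineage.

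The libraries held 27544171 to 31972153 counts, so the limit for a gene without reads, 3 counts, was 0.0864 to 0.132 CPM (read counts scaled by library size, with edgeR's trimmed-mean factor, TMM). Such limits and the counting intervals below cover counting error only. GOLM1 itself stood at 211 and 213 CPM in the controls and at 69.5 CPM in both knockdown libraries. Markers of the line were present: TNFRSF8, which encodes CD30, was at 634, 613, 538 and 88.3 CPM in shscramble replicates 1 and 2 and shGOLM1 replicates 1 and 2, and ALK at 340, 316, 327 and 170 CPM in the same order. All 13 lymphoma markers examined were above 3 counts in each library. The shGOLM1 libraries were unlike each other, and replicate 2 had 0.455% of its counts in mitochondrially encoded genes, against 1.95% in replicate 1 and 2.38% and 2.24% in shscramble.

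Of the 9 genes, 2 were read from 0 up to clear levels, 2 were expressed in all 4 libraries, and 5 stayed at or near 0. TREM1 and ALOX5AP made up the first group and CSF1R and CEBPD the second. SPI1 and CEBPA had 0 counts in all 4 libraries, TYROBP had 1 count in all, ALOX5 had 2 and FCER1G had 6. The filter on low counts passed 4 of the 9, and TREM1 and ALOX5AP passed it through shGOLM1 alone. The plot of member levels shows this split.

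**Figure D1:**
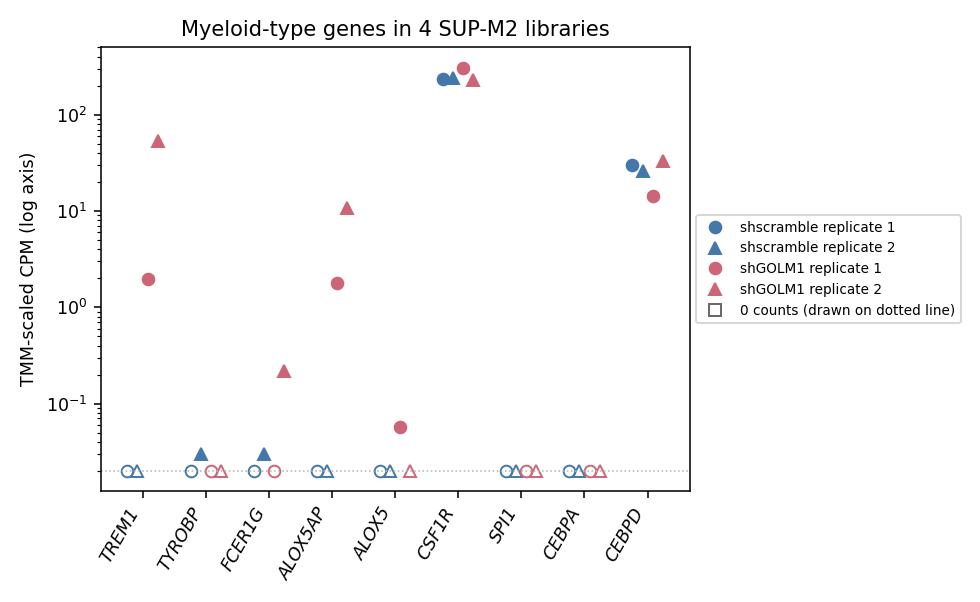
CPM (log axis) of the 9 myeloid-type genes in each library, with circles for replicate 1 and triangles for replicate 2, blue for shscramble and red for shGOLM1, and open symbols on the dotted line for 0 counts. TREM1 and ALOX5AP have open symbols in shscramble and filled ones in shGOLM1, with replicate 2 above replicate 1, while CSF1R lies between 231 and 309 CPM throughout.

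TREM1 (ENSG00000124731, chromosome 6, 41267926 to 41286719, minus strand, GRCh38) had 0 counts in both shscramble libraries, 68 counts in shGOLM1 replicate 1 and 1204 counts in shGOLM1 replicate 2. In CPM these were 0, 0, 1.96 (95% exact Poisson interval 1.52 to 2.48) and 52.8 (49.9 to 55.9). Both shGOLM1 libraries lay above both shscramble libraries, but they were 27-fold apart from each other. Against the floor of 3 counts per shscramble library, TREM1 was at least 21.5-fold higher in replicate 1, at least 581-fold higher in replicate 2 and at least 301-fold higher by the mean of both. The size of the mean therefore rests on replicate 2, whose mitochondrial share was low. The part of that library's state in the TREM1 level was not tested. In bulk RNA a few cells with much TREM1 and many cells with little cannot be told apart. Per length, in the deposited FPKM, TREM1 was at 0.44 in replicate 1, above 40.2% of the genes with a value over 0, and at 11.9 in replicate 2, above 81.3% of them.

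ALOX5AP (ENSG00000132965, chromosome 13, 30713478 to 30764426, plus strand) was unread in shscramble (0 counts in each library) and had 62 and 243 counts in shGOLM1 replicates 1 and 2. These were 1.79 CPM (95% exact Poisson interval 1.37 to 2.29) and 10.7 CPM (9.37 to 12.1), at least 19.6-fold and at least 117-fold above the shscramble floor. The groups did not overlap, and replicate 2 was again the higher, by 5.97-fold. The deposited FPKM was 1.01 and 6.04. Per length, in FPKM, ALOX5AP was thus above TREM1 in replicate 1 and below it in replicate 2.

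Going from 0 counts in both shscramble libraries to more than 3 counts in both shGOLM1 libraries was also seen for other genes. Of 37506 genes at 0 in shscramble, 257 did so (0.685%), and among 6578 protein-coding ones 130 did (1.98%). Among those 130 coding genes TREM1 ranked 9 and ALOX5AP 11 by the lower of their shGOLM1 CPM values. By the mean they ranked 3 and 7. The reverse pattern, 0 counts in both shGOLM1 libraries and more than 3 in both shscramble libraries, was shown by 40 of 35260 genes (0.113%). The members were chosen for this pattern, so nothing is read from these shares about them.

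CEBPD was read in every library but had no entry in the RefSeq promoter table. The stretches upstream of TREM1, ALOX5AP and CSF1R, the other members read at clear levels, are shown. Each runs 5′ to 3′ from 250 to 61 bases before the RefSeq start (GRCh38.p14) on the strand of the gene, and none of its bases is exonic in GENCODE 29. Capitals mark matches to 4 motifs searched on both strands: GAGGAA (the PU.1 core of the ETS family), TTGNNCAA (C/EBP), TGANTCA (AP-1) and TGTGGT (RUNX). CSF1R has 2 starts in the RefSeq table, an outer one and an inner one.
TREM1, chr6:41286743-41286932, minus strand: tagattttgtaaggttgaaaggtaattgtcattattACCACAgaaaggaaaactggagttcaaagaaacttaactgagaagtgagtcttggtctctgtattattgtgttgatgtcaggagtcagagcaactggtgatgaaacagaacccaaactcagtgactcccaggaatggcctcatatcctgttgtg
ALOX5AP, chr13:30713235-30713424, plus strand: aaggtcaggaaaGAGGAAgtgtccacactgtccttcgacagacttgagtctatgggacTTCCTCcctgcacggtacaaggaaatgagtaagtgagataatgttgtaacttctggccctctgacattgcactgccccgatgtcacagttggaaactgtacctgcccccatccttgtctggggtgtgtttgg
CSF1R outer start, chr5:150113426-150113615, minus strand: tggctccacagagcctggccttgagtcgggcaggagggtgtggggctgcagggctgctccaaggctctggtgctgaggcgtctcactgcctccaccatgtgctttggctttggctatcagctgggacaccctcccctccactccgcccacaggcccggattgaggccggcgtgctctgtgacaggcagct
CSF1R inner start, chr5:150086615-150086804, minus strand: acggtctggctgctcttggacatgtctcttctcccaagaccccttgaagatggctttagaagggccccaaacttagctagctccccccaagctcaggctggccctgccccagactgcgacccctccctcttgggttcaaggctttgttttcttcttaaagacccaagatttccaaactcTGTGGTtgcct

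The ALOX5AP stretch held 2 GAGGAA matches, 1 on each strand, 238 and 192 bases before the start. GAGGAA occurs in 18.2% of the 35116 RefSeq stretches of the same length. TREM1 held 1 TGTGGT match, on the opposite strand, 214 bases before its start, and the inner CSF1R start held 1 at 71 bases, against 8.49% of all stretches with at least 1. TTGNNCAA (3.84% of all) and TGANTCA (4.98% of all) had no match in these 4 stretches. The TREM1 stretch contained 0 CpG dinucleotides, as 9.41% of all stretches do, and 40% G and C, where the median of all is 56.8%. ALOX5AP contained 3 CpG, and the outer and inner CSF1R starts 6 and 2, where the median of all stretches is 7. A match is a string of letters and does not show that a factor binds there. The TYROBP stretch held 1 GAGGAA match, at 230 bases, and those of FCER1G and CEBPA held no match to any of the 4 motifs. Of the 9 members, 6 had an entry in the RefSeq promoter table. CEBPD, SPI1 and ALOX5 were not among them.

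TYROBP, the adaptor that TREM1 pairs with, and the related adaptor FCER1G were almost unread. TYROBP (ENSG00000011600, chromosome 19, 35904401 to 35908295) was at 0 and 1 counts in the shscramble libraries and was unread in shGOLM1. FCER1G (ENSG00000158869, chromosome 1, 161215234 to 161220699) was at 0 and 1 counts in the shscramble libraries and at 0 and 5 in shGOLM1. That is a ratio of 5.74 between the pooled groups, with a 95% counting interval from 0.642 to 271, and all the shGOLM1 counts come from replicate 2. In shGOLM1 replicate 2, where TREM1 had 1204 counts, TYROBP had 0 and FCER1G 5. HCST (DAP10), an adaptor gene that lies 24 bases from TYROBP on the other strand, was read in every library, at 1.1 and 0.661 CPM in shscramble and 1.35 and 3.29 CPM in shGOLM1. CD247, the zeta chain that carries ITAMs for the T cell receptor, had a higher FPKM than HCST, TYROBP and FCER1G in every library. Its deposited FPKM was 7.21 and 6.08 in shscramble and 8.45 and 21.1 in shGOLM1, with no overlap between groups.

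Some kinases below the adaptors were unread and others were expressed. SYK, the kinase that docks on ITAMs in myeloid and B cells, had 0 counts in all 4 libraries, as had BTK and FGR. ZAP70, its T cell counterpart, had 5 counts in shscramble replicate 2 and 0 elsewhere. The kinase LYN was at 81.4 and 77.6 CPM in shscramble and 62.7 and 74.3 CPM in shGOLM1. PLCG2, the phospholipase below SYK, was at 19.4 and 22.5 against 48.2 and 42.1 CPM, and VAV1, an exchange factor, at 41.7 and 39.9 against 36.5 and 55.6 CPM. Of the 31 genes in the list of ITAM adaptors and signalling apart from the members, 22 passed the filter and edgeR's quasi-likelihood test called 0 higher and 0 lower at an adjusted p under 0.05, as it called 0 of all 14166 tested genes (0%). At an unadjusted p under 0.05 there were 4 of the 22, where 11.8% of all tested genes were, and DESeq2 called 0. The shGOLM1 libraries lay both above shscramble for 6 and both below for 7, where 25.2% and 26.5% of all tested genes did. The median log2 fold change was 0, against 0.05 over all tested genes. VAV3, an exchange factor of the list, was at 8.36 and 10.3 against 3.28 and 4.48 CPM. LCP2, among the 6 higher, had at most 7 counts in a shscramble library and passed the filter through shGOLM1 alone.

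Other receptors that use these adaptors were mostly silent. Of 13 genes in the TREM family or known to pair with TYROBP, apart from TREM1, 8 had 0 counts in all libraries, including TREM2, TREML1, CLEC5A and NCR2. TREML2, which lies in the TREM gene cluster, had 14 counts in shGOLM1 replicate 2 and 0 in the other libraries. PILRB, at 0.888 and 1.29 against 2.25 and 0.702 CPM, was the gene of that list that passed the filter, and its groups overlapped. Of 18 receptors that pair with FCER1G, 12 had 0 counts in all libraries and 1 passed the filter. That gene was OSCAR, an immunoglobulin-like receptor of osteoclasts and myeloid cells, with 0 and 0 counts in shscramble and 22 and 112 in shGOLM1. OSCAR had the same on-and-off pattern and the same order of replicates as TREM1, at 0.634 and 4.92 CPM, at least 6.97-fold and at least 54-fold above the shscramble floor. OSCAR passed the filter through shGOLM1 alone, which fixed its direction. No p-value is therefore given for it.

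In the leukotriene pathway the enzyme that ALOX5AP serves was not read. ALOX5 (ENSG00000012779, chromosome 10, 45374176 to 45446119) had 0 counts in 3 libraries and 2 counts in shGOLM1 replicate 1, under the floor of 3. ALOX15 and ALOX15B, other lipoxygenases, had 0 counts throughout, and LTC4S, the leukotriene C4 synthase, had 4 counts in shGOLM1 replicate 1 and 0 elsewhere. Steps on either side of the lipoxygenase were expressed. PLA2G4A, the cytosolic phospholipase that releases arachidonic acid, was at 14.4 and 14.3 CPM in shscramble and 56.8 and 68 CPM in shGOLM1, 3.97-fold and 4.74-fold above the shscramble mean. The groups did not overlap and, unlike TREM1 and ALOX5AP, the shGOLM1 libraries were close to each other. The adjusted p of PLA2G4A was 0.42 by edgeR and 0.0072 by DESeq2.

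LTA4H, which makes leukotriene B4, was at 147 and 138 CPM in shscramble and 121 and 288 CPM in shGOLM1, so its groups overlapped. MGST2, a microsomal enzyme that can make leukotriene C4, was at 4.68 and 3 against 7.06 and 25.9 CPM. GGT1, a gamma-glutamyltransferase that can convert leukotriene C4, was at 66.7 and 67.6 against 111 and 180 CPM. For MGST2 and GGT1 both shGOLM1 libraries were the higher, with replicate 2 on top. LTB4R, the high-affinity receptor for leukotriene B4, was at 42.3 and 40.9 against 30.9 and 25.3 CPM, with both shGOLM1 libraries lower. Of the 24 pathway genes apart from the members, 8 had 0 counts in all libraries and 10 passed the filter. edgeR called 0 of them, with 3 at an unadjusted p under 0.05, where 11.8% of all tested genes were. DESeq2 called 1 higher, PLA2G4A, where it called 3.43% of all genes higher and 0.267% lower. Both shGOLM1 libraries lay above shscramble for 4 and below for 1, where they did for 25.2% and 26.5% of all tested genes, and the median log2 fold change of the 10 was 1.00. The plot of the pathway shows the gap at ALOX5 between expressed steps.

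**Figure D2:**
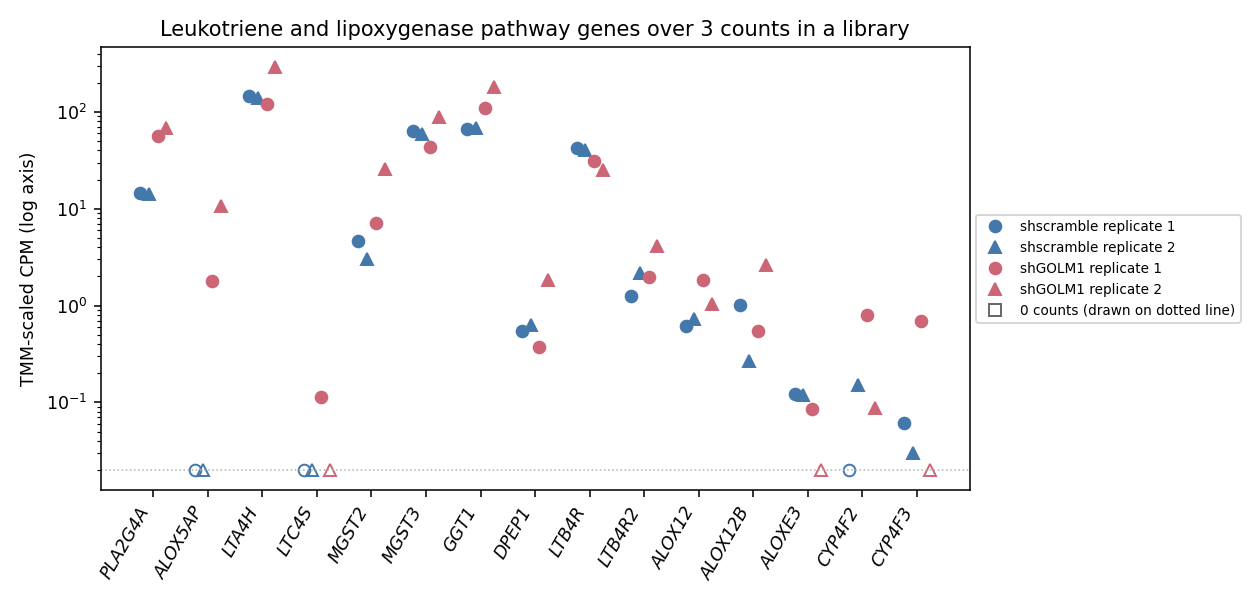
CPM (log axis) of the leukotriene and lipoxygenase genes with more than 3 counts in a library, in each of the 4 libraries, with open symbols on the dotted line for 0 counts. PLA2G4A lies at 14.3 to 14.4 CPM in shscramble and 56.8 to 68 CPM in shGOLM1, ALOX5AP is read in shGOLM1 alone, and ALOX5 is missing because no library had more than 3 counts.

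The neighbouring prostanoid branch of arachidonic acid use, taken as a further list, was looked at in the same libraries. PTGS1 and PTGS2, the cyclooxygenases, had at most 3 counts in any library. Of 19 genes 8 passed the filter, and edgeR called 0 with 3 at an unadjusted p under 0.05, against 11.8% of all tested genes. DESeq2 called 1 higher, against 3.43% of all genes. That gene was PTGER3, a prostaglandin E2 receptor, at 0.857 and 1.08 CPM in shscramble and 4.9 and 6.8 CPM in shGOLM1. The adjusted p of PTGER3 was 0.42 by edgeR and 0.0193 by DESeq2. Groups were apart for 5 higher and 2 lower genes, where 25.2% and 26.5% of all tested genes were, with a median log2 fold change of 1.15. The 2 lower were PTGES3, at 672 and 659 against 429 and 553 CPM, and PTGES2, at 56.6 and 54.3 against 43.4 and 19.5 CPM. Summed over the list, the level was 779 and 769 CPM in shscramble and 530 and 651 CPM in shGOLM1. HPGDS and PTGER1, among the higher, had at most 5 counts in a shscramble library and passed the filter through shGOLM1 alone.

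CSF1R (ENSG00000182578, chromosome 5, 150053291 to 150113372, minus strand) was the most highly expressed of the 9 genes. It had 7656 and 8041 counts in shscramble and 10731 and 5255 in shGOLM1. In CPM these were 234, 242, 309 and 231, with means of 238 ± 5.04 (SD, n = 2) in shscramble and 270 ± 55.5 (SD, n = 2) in shGOLM1. The groups overlapped, since shGOLM1 replicate 1 was above both shscramble libraries and replicate 2 below both. The direction turned with the library: the log2 ratio of mean CPM was 0.18 with both shGOLM1 libraries, 0.38 without replicate 2 and -0.05 without replicate 1. Per length, the deposited FPKM was 45.1 and 46.4 in shscramble and 58.4 and 43.5 in shGOLM1, which in each library was above at least 94.4% of the genes with a value over 0. A processed pseudogene of a ribosomal protein, RPL7P1, lies inside CSF1R on the other strand (150094302 to 150095048) and shares 0 bases with its exons. It had 6238 and 5648 counts in shscramble and 4668 and 13281 in shGOLM1, an order unlike that of CSF1R.

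The ligands and relatives of CSF1R were low. CSF1 had 39 and 32 counts in shscramble, 123 in shGOLM1 replicate 1 and 0 in replicate 2, and IL34 had 2 counts in all. PDGFRB, the receptor gene whose 3′ end lies 465 bases beyond CSF1R, had 7 and 18 counts in shscramble and 26 and 0 in shGOLM1. HMGXB3, 149 bases away on the other side, had 3305 and 3370 counts against 4158 and 1978. CSF2RB, the shared receptor chain for GM-CSF and interleukin 3, had 1 count in all, and CSF3R, KIT and CSF2 had 0. Of 14 genes of the list apart from CSF1R, 7 had 0 counts in all libraries and 3 passed the filter. edgeR called 0 with 1 at an unadjusted p under 0.05, against 11.8% of all tested genes. DESeq2 called 1 higher, against 3.43% of all genes. That was PDGFRA, a growth factor receptor of mesenchymal cells, at 0.888 and 0.601 against 9.13 and 3.38 CPM. The adjusted p of PDGFRA was 0.42 by edgeR and 0.008 by DESeq2.

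Of the 3 transcription factors in the set, SPI1 (ENSG00000066336, chromosome 11, 47354860 to 47378576) and CEBPA (ENSG00000245848, chromosome 19, 33299934 to 33302564) had 0 counts in every library. CEBPA-DT, the transcript that starts 293 bases from CEBPA on the other strand, had 3 counts in shGOLM1 replicate 2 and 0 elsewhere. CEBPD (ENSG00000221869, chromosome 8, 47736909 to 47739086) was read in each library, with 969 and 863 counts in shscramble and 498 and 759 in shGOLM1. In CPM these were 29.7, 25.9, 14.3 and 33.3, with means of 27.8 ± 2.65 (SD, n = 2) and 23.8 ± 13.4 (SD, n = 2). The shGOLM1 libraries lay on opposite sides of the shscramble pair, so the groups overlapped. The log2 ratio of mean CPM for CEBPD was -0.22 with all libraries, -0.95 without shGOLM1 replicate 2 and 0.26 without shGOLM1 replicate 1.

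Among the other C/EBP genes CEBPE, the granulocyte factor, had 2 and 2 counts in shscramble and 8 and 0 in shGOLM1, and the rest were expressed. In the deposited FPKM, CEBPB, the family member tied to acute-phase and inflammatory genes, was at 40.9 and 34.2 in shscramble and 32.5 and 93.1 in shGOLM1. CEBPG, a partner of stress-response factors, was at 14.9 and 14.8 against 8.79 and 45 FPKM, and CEBPD at 13.5 and 11.8 against 6.41 and 14.9 FPKM. Each of the 3 was lower in shGOLM1 replicate 1 and higher in replicate 2 than both shscramble libraries. DDIT3 (CHOP), a C/EBP-like stress factor, had the same order at 9.89 and 8.22 against 5 and 237 FPKM. These 4 genes were therefore highest in shGOLM1 replicate 2, whose mitochondrial share was low, and the part of that in their levels was not tested.

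SPIB, a close relative of SPI1, had 28 and 33 counts in shscramble and 13 and 0 in shGOLM1, and SPIC had 0. IRF8 and KLF4, further regulators of monocytes, also had 0 counts in all libraries. Factors shared with the lymphoid lineage were expressed. RUNX1 was at 86.8 and 95.8 CPM in shscramble and 226 and 93.1 CPM in shGOLM1, and its partner CBFB at 171 and 168 against 245 and 92.3 CPM. Both stood higher in shGOLM1 replicate 1 than in replicate 2, the reverse of the C/EBP order. ZEB2, a repressor with roles in myeloid and lymphoid cells, was at 1.71 and 1.56 against 25.8 and 18 CPM. The adjusted p of ZEB2 was 0.42 by edgeR and 4.98e-07 by DESeq2. HOXA9, a homeobox gene, was at 25.1 and 24.1 against 10.8 and 15.4 CPM.

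Of 27 myeloid transcription factors apart from the members, 19 passed the filter. edgeR called 0 of them, with 1 at an unadjusted p under 0.05, against 11.8% of all tested genes. DESeq2 called 2 higher (ZEB2 and DDIT3) and 0 lower, against 3.43% and 0.267% of all genes. The groups did not overlap for 5 higher and 2 lower, where 25.2% and 26.5% of all tested genes were apart, and the median log2 fold change was 0.77. With each shGOLM1 library taken alone against both shscramble libraries, edgeR called 5 of the 19 tested in opposite directions, where 11.2% of all genes tested in both fits were: CBFB, MYB and RUNX3 were higher in replicate 1 and lower in replicate 2, and CEBPG and DDIT3 the reverse. Such a fit takes the spread of the lone library from the shscramble pair, and it compares libraries rather than conditions. The plot of transcription factor levels shows the order by library.

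**Figure D3:**
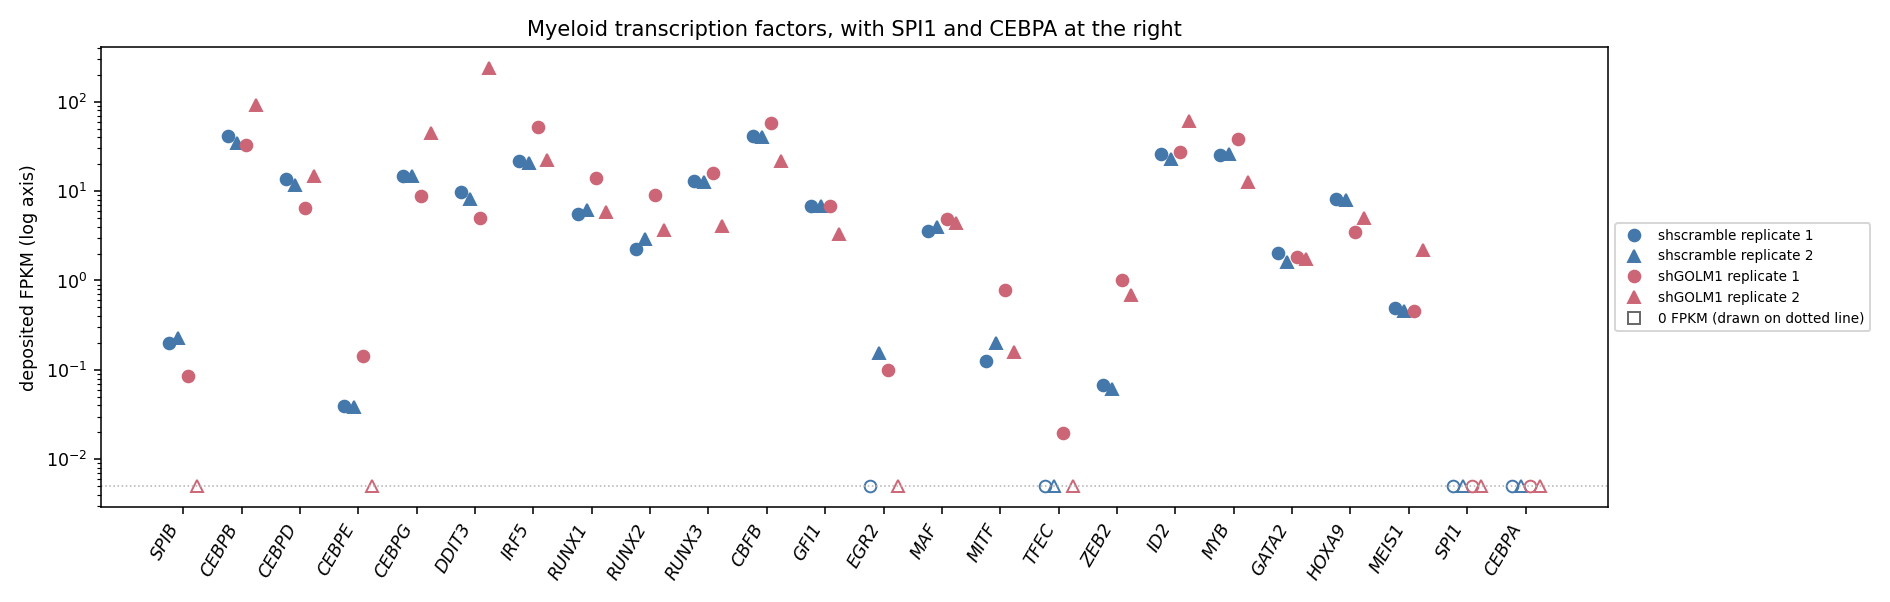
Deposited FPKM (log axis) of myeloid transcription factors with more than 3 counts in a library, in each of the 4 libraries, with SPI1 and CEBPA at the right and open symbols on the dotted line for 0. CEBPB, CEBPD, CEBPG and DDIT3 are highest in shGOLM1 replicate 2, whereas SPI1 and CEBPA are at 0 in all 4.

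Markers of mature myeloid cells were at the floor for the most part, in shGOLM1 as in shscramble. Of 58 markers of monocytes, macrophages and granulocytes, 28 had 0 counts in all libraries, among them CD163, S100A8, AIF1, ELANE, CYBB, C1QA, FPR1, CXCR1 and TLR2, and 37 had at most 3 counts in every library. More than 3 counts were reached by 9 and 10 markers in shscramble and by 18 and 12 in shGOLM1. CD14 was at 0.674 and 0.3 CPM in shscramble and 0.461 and 0.132 CPM in shGOLM1, and LYZ, lysozyme, had at most 5 counts. Summed over the list, the level was 69.7 and 85 CPM in shscramble and 409 and 97 CPM in shGOLM1. VCAN, the matrix proteoglycan versican, was a large part of that, at 60 and 74.9 against 357 and 39.1 CPM, and its share was smaller in shGOLM1 replicate 2 than in the other libraries. Without VCAN, a choice made after seeing the data, the sum was 9.65 and 10 CPM against 52.6 and 57.9 CPM.

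A few genes made up most of the sum without VCAN. ITGAX (CD11c), an integrin chain of myeloid cells and some lymphocytes, was at 0.551 and 0.481 CPM in shscramble and 6.19 and 31.1 CPM in shGOLM1, 12-fold and 60.2-fold above the shscramble mean. Its partner chain ITGB2 was nearly unread, with 3 counts in each shscramble library and 11 and 0 in shGOLM1. The adjusted p of ITGAX was 0.42 by edgeR and 8.39e-08 by DESeq2. CTSS, the lysosomal protease cathepsin S, was at 1.19 and 1.2 against 18.1 and 11.2 CPM. NCF4, a cytosolic subunit of the phagocyte oxidase, was at 0.643 and 0.571 against 2.85 and 8.03 CPM, while CYBB, the oxidase's catalytic subunit, had 0 counts. CD86, a costimulatory ligand of antigen-presenting cells, was at 5.05 and 5.89 against 19.5 and 4.08 CPM, so its groups overlapped. Of the 10 markers that passed the filter edgeR called 0 with 4 at an unadjusted p under 0.05, against 11.8% of all tested genes. DESeq2 called 3 higher (ITGAX, CTSS and NCF4) and 0 lower, where it called 3.43% of all genes higher. The groups did not overlap for 6 higher and 0 lower, against 25.2% and 26.5% of all tested genes, and the median log2 fold change was 1.94. ITGAM and MSR1, among the higher, had at most 7 counts in a shscramble library and passed the filter through shGOLM1 alone.

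Genes shared by all leukocytes included several that shscramble barely expressed. LAPTM5, a lysosomal membrane protein of blood cells, and ARHGDIB, a regulator of small GTPases in blood cells, were higher in both shGOLM1 libraries. In shscramble ARHGDIB had 0 counts, while LAPTM5 was low but read, with 40 and 47 counts. LAPTM5 was at 0.371 and 0.427 FPKM in shscramble and 22.1 and 17.5 FPKM in shGOLM1, and ARHGDIB at 0 and 0 against 13.9 and 17.1 FPKM. For this pair the shGOLM1 libraries were close to each other, unlike for TREM1 and ALOX5AP. Of 17 T cell markers 4 had 0 counts in all libraries (CD3G, CD8A, TRBC1 and TRBC2) and 8 passed the filter, of which 4 were higher and 2 lower in both shGOLM1 libraries, against 25.2% and 26.5% of all tested genes. CD4 was among the higher, at 182 and 180 against 307 and 380 CPM, and GATA3 among the lower, at 19.4 and 20.7 against 16.1 and 12.7 CPM. Of 16 pan-leukocyte genes 14 passed the filter, and edgeR called 0 with 5 at an unadjusted p under 0.05, against 11.8% of all tested genes. DESeq2 called 4 of the pan-leukocyte genes higher, against 3.43% of all genes. Their groups were apart for 7 higher and 0 lower, against 25.2% and 26.5% of all tested genes. ARHGDIB, LSP1 and CD37, among the higher, passed the filter through shGOLM1 alone, which fixed their direction.

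**Figure D4:**
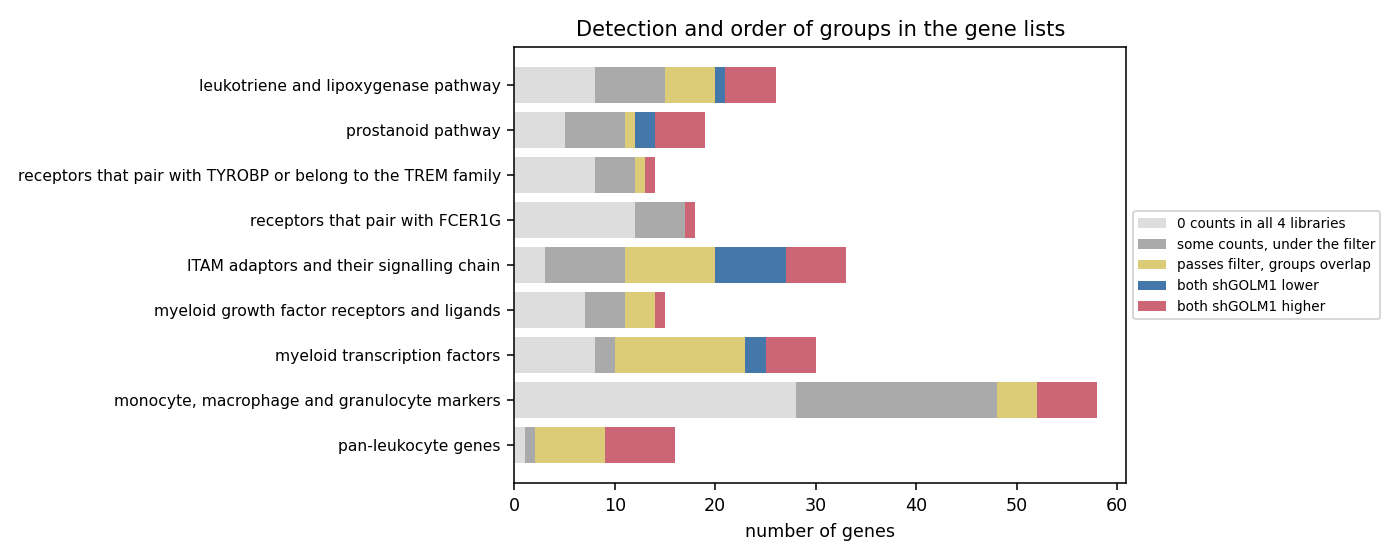
Number of genes (horizontal axis) in each of 9 gene lists, members included, split by detection and by the order of the groups in CPM. Myeloid markers and the receptor lists are mostly grey (0 counts or under the filter), while most pan-leukocyte genes and most transcription factors passed the filter.

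Markers of other cells that a culture could hold were looked at in the same way. Of 8 mast cell and basophil markers 6 had 0 counts in all libraries, including TPSAB1, CPA3, MS4A2 and FCER1A, and HDC, the histamine-forming enzyme, was at 1.41 and 0.991 CPM in shscramble and 3.28 and 5.49 CPM in shGOLM1. Of 12 B cell markers 4 had 0, including MS4A1 and CD79B, while POU2AF1, a lymphoid coactivator, was at 0.643 and 0.871 against 4.21 and 4.04 CPM. EBF1, also of that list, was at 30.6 and 31.4 against 54.6 and 0.79 CPM, so its groups overlapped. Of 19 fibroblast, epithelial, erythroid and platelet markers 8 had 0, and LUM, a matrix proteoglycan of fibroblasts, had 0 and 0 counts in shscramble and 32 and 39 in shGOLM1. HBG2, a fetal globin gene, had 0 and 0 against 14 and 20 counts. The summed level of that list was 0.459 and 0.961 CPM in shscramble and 2.48 and 6.41 CPM in shGOLM1. Of 8 NK cell markers 3 had 0. NKG7, a granule protein, was at 0.214 and 0 against 2.22 and 4.43 CPM. EOMES, of the same list, was at 21.8 and 25 against 19.1 and 1.18 CPM, with both shGOLM1 libraries lower. NCAM1 had 0 and 0 counts in shscramble and 45 and 13 in shGOLM1, and the part of such cells in the TREM1 and ALOX5AP reads was not tested.

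Across the 220 genes of the 9 pathway and lineage lists apart from the members, 78 had 0 counts in all libraries and 88 passed the filter. edgeR called 0, with 22 at an unadjusted p under 0.05, where 11.8% of all tested genes were. DESeq2 called 13 higher and 0 lower, where it called 3.43% of all genes higher and 0.267% lower. Groups were apart for 35 higher and 12 lower, against 25.2% and 26.5% of all tested genes, and the median log2 fold change was 0.74, against 0.05 over all tested genes. ARHGDIB, LSP1 and OSCAR, at 0 counts in shscramble, passed the filter through shGOLM1 alone. So did CD37, with 1 and 0 counts in shscramble, and LCP2, HPGDS, PTGER1, ITGAM and MSR1, which were low there. The filter thus fixed their direction, and they are part of the higher counts and medians given for the lists. With each shGOLM1 library taken alone, edgeR called 21 higher in both, 8 lower in both and 11 in opposite directions among the 88 genes tested in both fits. Over all 14377 genes tested in both fits the shares were 9.62% higher in both, 13.9% lower in both and 11.2% in opposite directions. The genes higher in both included PLA2G4A, ITGAX, CTSS, NCF4, ZEB2 and LAPTM5. OSCAR, ARHGDIB and other genes that passed the filter through shGOLM1 alone were among them too, with their direction fixed. The genes lower in both included LTB4R, VAV3 and HOXA9. Both fits use the same shscramble pair and take their spread from it, so a call in both is not independent support.

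**Figure D5:**
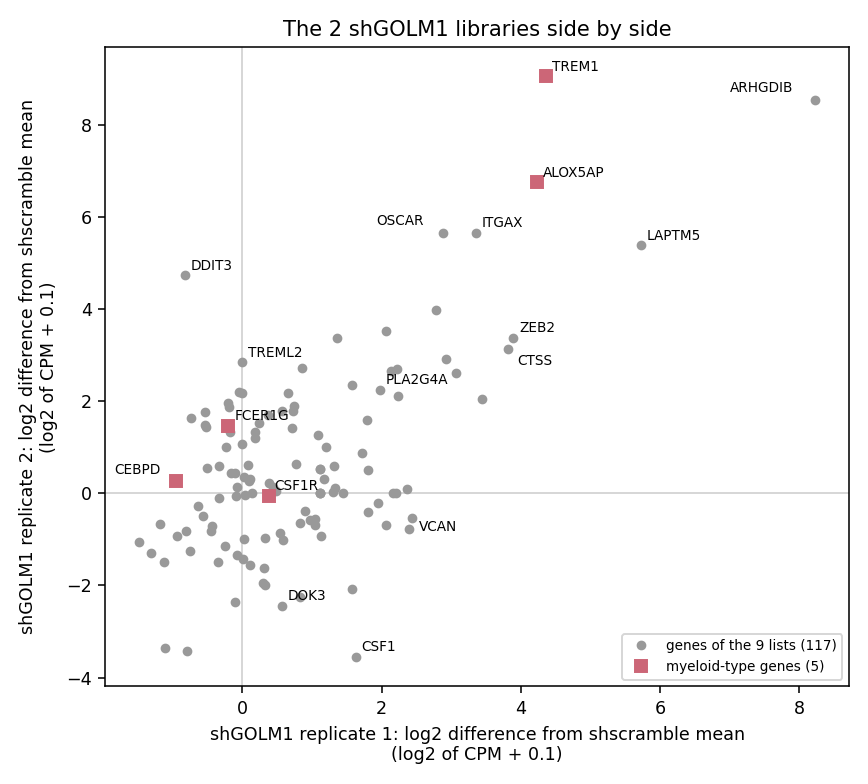
Log2 difference from the shscramble mean (of CPM + 0.1) in shGOLM1 replicate 1 (horizontal) and replicate 2 (vertical) for genes of the 9 lists with more than 3 counts in a library, with 5 members as red squares and 117 other genes in grey. TREM1 (4.36 and 9.05) and ALOX5AP (4.24 and 6.75) lie far to the upper right with ARHGDIB, LAPTM5, OSCAR and ITGAX, while CSF1R and CEBPD lie near 0 with opposite signs on the axes.

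The genes whose levels were most like those of TREM1 over the 4 libraries, by Euclidean distance in log2 CPM among 11845 tested genes, were MAGEH1 (distance 1.64), DPYSL3 (1.97), ALOX5AP (2.31), LRRK2 (2.52) and EFEMP2 (3.02). MAGEH1 was at 0 and 0 CPM in shscramble and 4.03 and 21.7 CPM in shGOLM1. TREM1 and ALOX5AP were both chosen for having reads in shGOLM1 alone, so their nearness restates that choice. Nearest to ALOX5AP were ROBO2 (1.08), SMOC2 (1.33), CLGN (1.48), MAGEH1 (1.53) and the noncoding gene MIR4527HG (1.53). ROBO2 and SMOC2 had 0 counts in shscramble, 33 and 26 in shGOLM1 replicate 1, and 154 and 160 in replicate 2. Apart from ALOX5AP, these nearest genes are not in the lists used here, which does not say whether myeloid cells express them. Nearest to CSF1R were CNN2 (0.248), CNOT1 (0.281), MIDN (0.299), CD47 (0.313) and TGFB1 (0.313), each of which was highest in shGOLM1 replicate 1.

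Genes next to the members on the chromosome had varied patterns. Around TREM1, within 250000 bases, TREML1, TREM2 and NCR2 had 0 counts. UNC5CL, TSPO2, TREML2 and APOBEC2 were low, with at most 34, 1, 0 and 5 counts in a shscramble library. They had 31, 0, 0 and 0 counts in shGOLM1 replicate 1 and 98, 10, 14 and 7 in replicate 2, so their groups overlapped. OARD1 had 1207 and 1095 counts in shscramble and 754 and 956 in shGOLM1. NFYA, a subunit of a general transcription factor, had 3430 and 3735 counts in shscramble and 3152 and 2012 in shGOLM1. Around ALOX5AP, MEDAG and TEX26 had 0 counts in all libraries. HMGB1, a chromatin protein gene on its other side, had 21778 and 19463 counts in shscramble and 10924 and 7612 in shGOLM1, and USPL1 had 1023 and 1260 against 809 and 530. ALOX5AP was thus read in shGOLM1 beside neighbours whose shGOLM1 libraries were both lower. SPIDR, whose 3′ end lies 603 bases from CEBPD, was at 29.7 and 32.8 against 35.6 and 46.3 CPM.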

How the data were processed

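Total RNA of SUP-M2 was turned into RNA-seq libraries with a SMARTER kit, per the labels' protocols. The aligner, counter and strand setting were not given in the sources used here. GRCm38 and mm10 are the builds in the submitters' processing notes, but all 58735 gene identifiers in the deposited table are human, with coordinates equal to GENCODE 29 (GRCh38). The deposited counts are raw whole reads per gene, per the file headers. Levels between genes were compared in the FPKM that the authors computed. The authors' mean signal per group, log2 fold change and p-value columns, per the file headers, were read but not used in the text. Symbols turned into dates (27) were restored by identifier.

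Groups were compared by the quasi-likelihood test of edgeR 4.0.16 (R 4.3.3, limma 3.58.1), two-sided and without covariates, after TMM and filterByExpr. Its p-values were adjusted by Benjamini-Hochberg over 14166 genes. The 15 gene lists were described by counts and medians without a set test. Alternatives were other size factors, other filters, a replicate block, DESeq2 1.42.0, limma-voom and leaving out each library. Named genes were the 9 members, up to 4 genes per list with the largest change among those with groups apart and at least 1 CPM, up to 3 with the highest level, markers at 0, nearest genes in pattern and neighbours. These genes that the text singles out fall outside that rule and were chosen after their values were seen: ALK, APOBEC2, CD14, CD247, CEBPB, CEBPE, CEBPG, CSF2RB, DDIT3, HBG2, HMGB1, HPGDS, IL34, ITGAM, ITGB2, LSP1, LTB4R, LTC4S, LYN, LYZ, MEDAG, MSR1, NFYA, OARD1, PLCG2, PTGER1, PTGS1, PTGS2, RUNX1, RUNX3, SPIB, TEX26, TSPO2, UNC5CL, VAV1 and ZAP70. The members and the lists were chosen with earlier results of these data known. The procedure was tested on simulated data with set changes in some genes, equal means in the others and little spread between replicates. The shGOLM1 libraries were further apart than that, so the simulation does not give the power of the test here. A few listed genes are not reported here. Plots were made in matplotlib 3.10.9.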

Additional observations from a re-analysis of the deposited data

How the results depend on the processing

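The number of genes called by edgeR was 0 with TMM, with size factors of the DESeq2 kind, with library totals alone, with a filter of 5 CPM in at least 2 libraries and in limma-voom. It was 192 with no filter on low counts (8 of the listed genes apart from the members), 554 in DESeq2 (13 listed genes) and 203 with the replicate number as a block (7 listed genes). The cause of these differences was not tested. The labels number the replicates in both groups but do not say that a number marks a shared culture or day, and with 2 pairs the check (a correlation of -0.0977 between same-numbered deviations across 14166 genes) does not show that the numbers pair the libraries. Leaving out each library in turn gave 20 to 10290 calls over all genes and 1 to 63 among the listed genes. The largest numbers came without shGOLM1 replicate 1 (10290 and 63) and without shGOLM1 replicate 2 (6721 and 53), where the spread is estimated from the shscramble pair. The number of genes with groups apart was 7319 with TMM and 5129 to 9736 over its 4 alternatives, and the split into 3566 higher and 3753 lower became 1980 and 3149 with the 5 CPM filter and 5212 and 4524 with no filter.

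The log2 ratio of mean CPM for TREM1, with shscramble at its floor, was at least 8.23 and ran from 4.43 (without shGOLM1 replicate 2) to 9.18 (without shGOLM1 replicate 1). For ALOX5AP it was at least 6.10 and ran from 4.3 to 6.87 in the same settings. CSF1R (0.18) reversed to -0.05 and CEBPD (-0.22) to 0.26 without shGOLM1 replicate 1, and they were 0.38 and -0.95 without shGOLM1 replicate 2. Depth limits TYROBP, ALOX5, SPI1, CEBPA and FCER1G, for which levels up to about the floor of 3 counts per library could not be told from 0.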
